A study of Mus musculus with 15 samples.

Results

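The genes described here are the nuclear-encoded genes of the mitochondrial respiratory chain, measured in nuclear RNA of cortical parvalbumin neurons from mice with altered thyroid hormone signalling. Members were chosen by gene symbol: names beginning Nduf or Uqcr, the names Sdha to Sdhd, names beginning Cox followed by a digit from 4 to 8, and Cycs, wherever both sets of deposited tables list the symbol. The rule gave 76 genes of the 46380 symbols common to both sets, and used no measured value. By role they are 36 subunits of complex I, 7 complex I assembly factors, the 4 subunits of complex II, 8 subunits of complex III, 20 genes of complex IV and cytochrome c. Ndufa4 and Ndufa4l2 were counted with complex IV, to which the Ndufa4 protein belongs despite its name.

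All mice carried PvCre, which drives Cre from the parvalbumin gene, and ROSA-tomato-lox, a reporter that Cre switches on, so that the labelled nuclei could be sorted from the frozen cortex of single adult animals. Ctrl mice (n = 4) were Thra+/+ and untreated. Mut mice (n = 4) were their ThraAMI/+ littermates, in which Cre makes the parvalbumin neurons express a dominant negative form of thyroid hormone receptor alpha 1 (TRalpha1L400R) beside the wild-type allele. PTU mice (n = 3) were Thra+/+ and ate propylthiouracil, an inhibitor of thyroid hormone synthesis, for 2 weeks. PTU_TH mice (n = 4) were Thra+/+ on the same diet and were given thyroid hormone intraperitoneally 24 h before the cortex was taken.

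The respiratory chain passes electrons from NADH (complex I) and succinate (complex II) through complex III and cytochrome c to oxygen at complex IV. All subunits of complex II and most of those of the other complexes are encoded in the nucleus, while a few core subunits are encoded by mitochondrial DNA. Thyroid hormone is a classical regulator of oxidative metabolism in liver, heart and muscle, and fast-spiking parvalbumin neurons are known for a high energy demand. The comparisons asked whether these genes responded to hormone given to hormone-depleted animals, and whether they differed in neurons with the dominant negative receptor.

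Promoter windows were searched for fixed motifs only, of factors known from respiratory genes and of the thyroid hormone receptor. RefSeq windows (GRCm38.p6, 250 bases before to 50 bases after the start) were matched for 61 of the 76 members. The NRF1 motif, GCGCA and GCGC with 1 base between, bound by a known activator of respiratory genes, occurred on either strand in 13 of 61 members (21.3%), against 11.1% of 10191 tested genes and 5.19% of 27025 genes. The YY1 motif AAGATGGC occurred in 7 (11.5%, against 5.03% and 3.19%). The GABPA motif CCGGAAGT occurred in 4 (6.56%, against 8.78% and 4.31%). The thyroid hormone receptor half-site AGGTCA occurred in 13 (21.3%, against 14.7% and 18.1%). The paired element known as DR4, the half-site repeated in the same direction after 4 bases and so overlapping the half-site matches, occurred in 0 members, in 1 of the 10191 tested genes and in 4 of the 27025. A match is a match of letters, not a bound site. The windows below are those of Cox6a1 and Sdha, the former with 2 NRF1 matches and the latter with 3, of Ndufa3, the member with the smallest p in Mut against Ctrl, with 1 YY1 match, and of Cycs, the single electron carrier, with no exact match to any of these motifs. Each is written 5′ to 3′ along its gene, with matches in capitals.
Cox6a1, chr5:115348909-115349208, minus strand: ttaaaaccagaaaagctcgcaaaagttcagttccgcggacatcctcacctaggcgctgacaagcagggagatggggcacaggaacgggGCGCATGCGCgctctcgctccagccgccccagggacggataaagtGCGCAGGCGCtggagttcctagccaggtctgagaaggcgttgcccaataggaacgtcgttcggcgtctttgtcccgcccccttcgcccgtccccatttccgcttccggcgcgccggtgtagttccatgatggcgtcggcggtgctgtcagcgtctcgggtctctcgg
Sdha, chr13:74350191-74350490, minus strand: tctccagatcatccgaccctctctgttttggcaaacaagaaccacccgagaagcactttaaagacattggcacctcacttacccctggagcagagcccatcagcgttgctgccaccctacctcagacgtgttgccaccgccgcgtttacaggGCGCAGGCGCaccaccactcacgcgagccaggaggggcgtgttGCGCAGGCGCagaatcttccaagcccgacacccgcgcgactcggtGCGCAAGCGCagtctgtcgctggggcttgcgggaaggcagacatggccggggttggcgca
Ndufa3, chr7:3617123-3617422, plus strand: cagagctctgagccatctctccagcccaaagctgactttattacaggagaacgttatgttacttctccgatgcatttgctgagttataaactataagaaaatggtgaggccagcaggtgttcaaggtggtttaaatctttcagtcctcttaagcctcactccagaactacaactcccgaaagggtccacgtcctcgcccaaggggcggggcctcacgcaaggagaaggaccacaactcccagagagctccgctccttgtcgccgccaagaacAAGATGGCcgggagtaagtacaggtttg
Cycs, chr6:50566520-50566819, minus strand: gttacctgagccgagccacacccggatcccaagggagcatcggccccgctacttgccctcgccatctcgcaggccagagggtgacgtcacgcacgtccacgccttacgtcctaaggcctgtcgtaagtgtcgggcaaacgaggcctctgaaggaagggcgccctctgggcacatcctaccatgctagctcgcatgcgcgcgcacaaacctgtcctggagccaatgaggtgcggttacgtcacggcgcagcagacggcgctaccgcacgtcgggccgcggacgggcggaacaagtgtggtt

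Of the 76 members, 68 passed the low-count filter in each comparison, and they were the same 68. Libraries held 12957838 to 32571175 counts, of which the members took 0.417% to 0.665%. Levels are given as CPM, counts relative to the library's total, scaled with TMM separately for the PTU and PTU_TH libraries and for the Ctrl and Mut libraries. The 10 parvalbumin neuron markers summed to 5868 to 10030 CPM, against 290 to 528 CPM for 10 excitatory neuron markers, 96.1 to 290 CPM for 8 markers of other interneurons, 58.8 to 106 CPM for 7 astrocyte markers, of which Gfap had 0 counts, 87.1 to 201 CPM for 8 oligodendrocyte markers, 58.7 to 92.9 CPM for 6 microglial markers, of which P2ry12 had 0 counts, and 0.222 to 12.6 CPM for 4 endothelial markers. Hr, a direct target of the hormone receptor, had 2.71 to 5.66 CPM in PTU and 42.1 to 50.2 CPM in PTU_TH. In Mut, Thra had 27.8 to 37.9 CPM, against 48.3 to 62.2 CPM in Ctrl. In such pooled nuclei, fewer cells of a type and less RNA per cell cannot be told apart.

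Every complex was represented in the nuclear RNA. Levels per kilobase of exon were ranked by the mean of the 4 group means. The highest were those of Cox7b (156 CPM per kb), Uqcr10 (143), Cox8a (115), Cox6b1 (103) and Uqcr11 (98.5). All of these are small subunits of complexes III and IV. Cox7b had 154 ± 11.9 CPM per kb in Ctrl (SD, n = 4), 148 ± 42.2 in Mut (n = 4), 155 ± 27.8 in PTU (n = 3) and 169 ± 13.1 in PTU_TH (n = 4). Uqcr10, a small subunit of complex III, had 128 ± 22.8, 136 ± 36.9, 160 ± 31.7 and 149 ± 24.8 CPM per kb in the same order. Sdha, the flavoprotein that oxidises succinate, had 81.5 ± 5.84, 89.7 ± 10.95, 84.8 ± 15.3 and 91.0 ± 11.1 CPM per kb. Neighbours in this order can be close. In Ctrl, Cox6b1 had 94.0 ± 5.21 CPM per kb and Uqcr11 84.2 ± 12.7, a difference smaller than the SD of the latter. Cox6a1, next after Uqcr11 in this order (96.7), had 98.8 ± 17.8 CPM per kb in Ctrl, above both.

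Hormone given to PTU mice was followed by no called change in this set. At an adjusted p under 0.05 (edgeR's quasi-likelihood test, Benjamini-Hochberg adjustment over all genes tested), 0 of the 68 tested members passed, where 0.281% of all genes did. DESeq2 also called 0, where it called 203 of 24656 genes. At an unadjusted p under 0.05, 1 member passed with edgeR and 1 with DESeq2, where edgeR gave 7.37% of all genes. The smallest adjusted p among members was 0.673. The estimates of the 68 members lay between −0.30 and 0.45 (log2 fold change, PTU_TH over PTU), with a median of 0.05, against −0.003 over all genes, and 48 were positive and 20 negative. The 95% interval stayed within a 1.5-fold change in either direction for 56 of 68 members and within a 2-fold change for 66. The 2 with wider intervals were Cox7b2 and Cox8b, the lowest of those tested in CPM not divided by length.

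**Figure D1:**
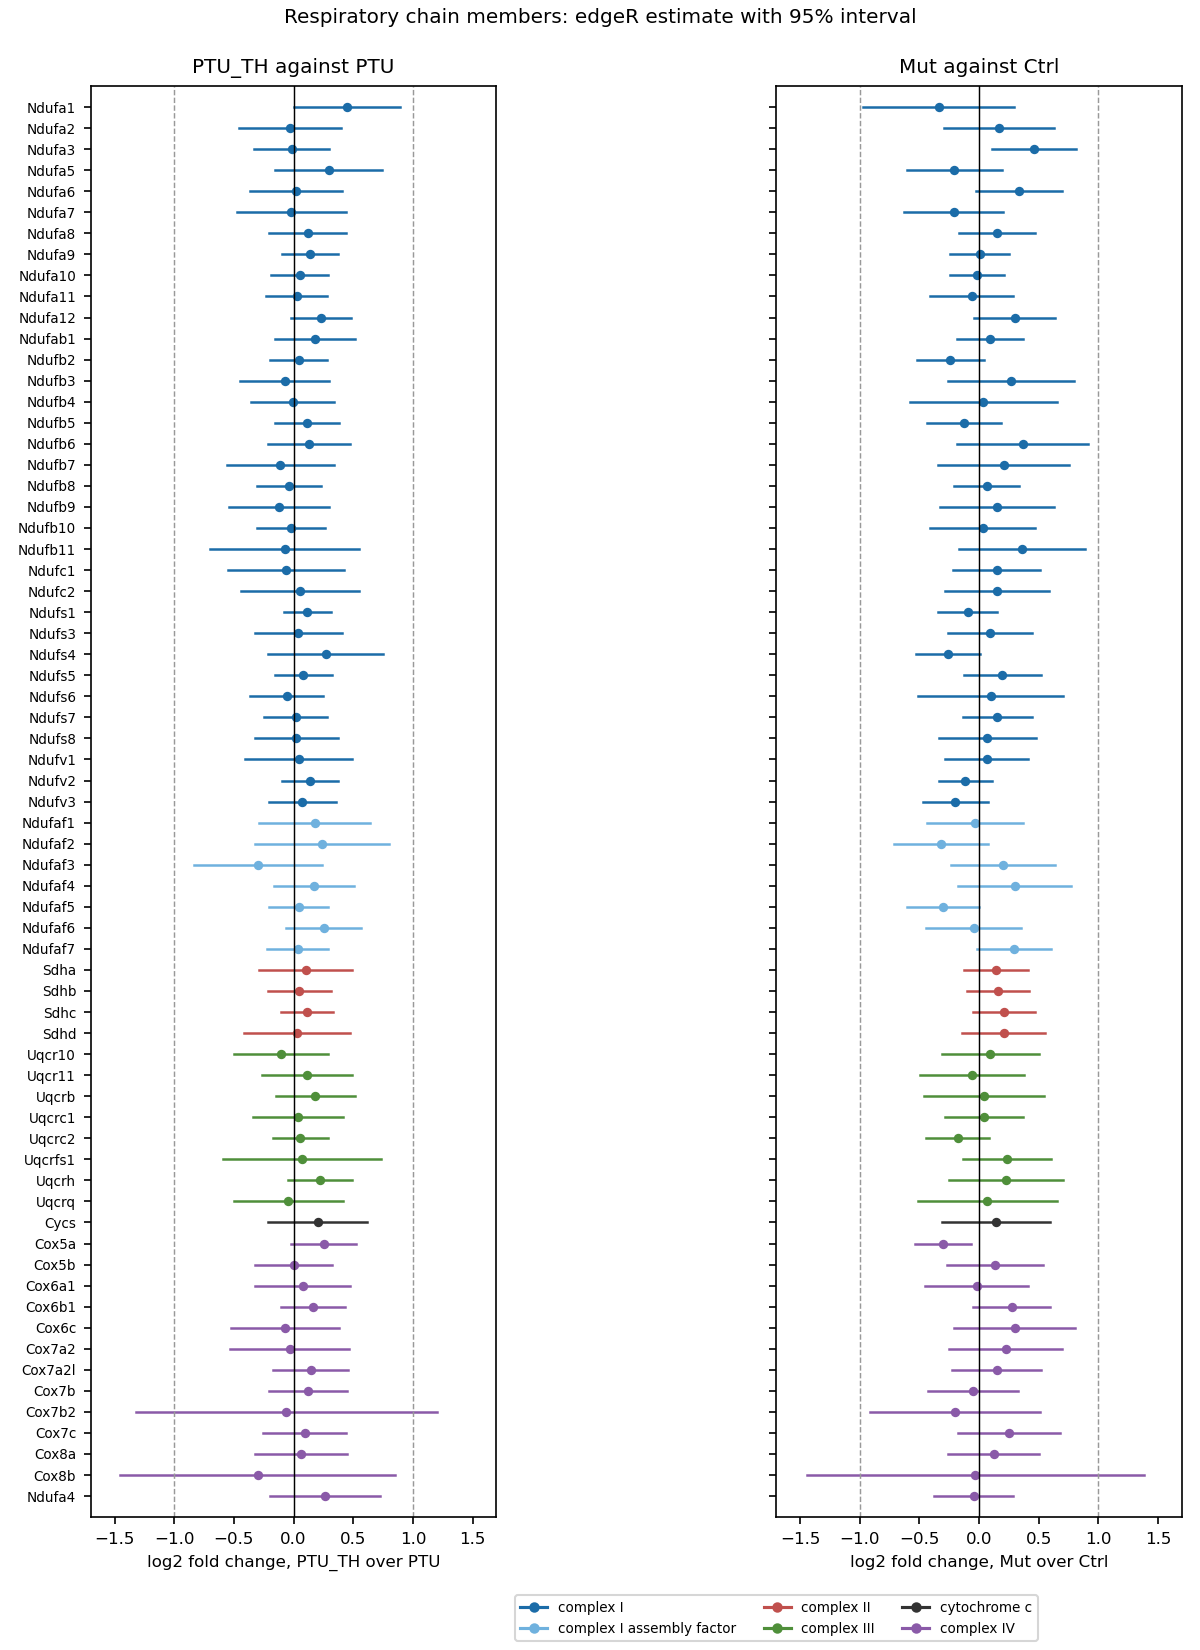
Log2 fold change of the tested members but 1 (points) with its 95% interval from edgeR (lines), PTU_TH over PTU on the left (4 and 3 libraries) and Mut over Ctrl on the right (4 and 4), coloured by role. Dashed lines mark 2-fold changes. In both panels the estimates lie within 0.5 of 0, and the longest intervals are those of Cox7b2 and Cox8b.

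Among the complex I subunits, 22 of 35 tested estimates were positive, with a median of 0.04. The member with the smallest p was Ndufa1, an X-linked accessory subunit of the membrane arm. It had 10.4, 13.6 and 16.3 CPM in the PTU libraries and 16.3, 16.8, 17.8 and 22.6 CPM in the PTU_TH libraries. The groups overlapped only at 16.3 CPM, and the fold change of 0.45 ± 0.19 (SE) had an adjusted p of 0.673 with edgeR. Ndufa12, an accessory subunit of the arm that binds NADH, had 32.4 to 35.7 CPM in PTU and 36.7 to 44.0 CPM in PTU_TH. These groups did not overlap, but the change of 0.23 ± 0.11 had an adjusted p of 0.739. Ndufs1, a core subunit with iron-sulfur clusters, was the other member whose PTU_TH values all lay above PTU, at 95.9 to 101 CPM against 90.2 to 94.7 CPM (0.12 ± 0.09, edgeR adjusted p = 0.939). Such a separation upward was found for 2 of 68 members and for 4.51% of all genes, and a separation downward for 0 of 68 and 4.09% of all genes. The 7 core subunits that carry the flavin and iron-sulfur clusters had a median of 0.04. Ndufb9, another accessory subunit, had the smallest p among the negative complex I estimates (−0.12 ± 0.19, edgeR adjusted p = 1.00).

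The 7 assembly factors of complex I, which build the complex and are not part of it, had a median of 0.17 in this comparison, above those of the 4 complexes, with 6 positive and 1 negative. Their summed level was 394 to 410 CPM in the 3 PTU libraries and 427 to 437 CPM in the 4 PTU_TH libraries, ranges that do not overlap, while the sums of complexes I, II, III and IV and the level of cytochrome c overlapped. Without Ndufaf2, left out after the values were seen because its counts are uncertain (below), the sums overlapped too, at 316 to 366 CPM in PTU and 342 to 387 CPM in PTU_TH. No single factor passed. The exception in sign was Ndufaf3, an early assembly factor, with 17.8, 25.3 and 27.6 CPM in PTU and 12.7, 19.1, 21.1 and 23.9 CPM in PTU_TH. Its groups overlapped and its estimate of −0.30 ± 0.23 had an adjusted p of 0.954 with edgeR.

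The 4 subunits of complex II had estimates from 0.03 to 0.11, all positive. Sdhc, a membrane anchor of the complex, was among the least variable members, with 57.0 to 59.3 CPM in PTU and 57.5 to 67.9 CPM in PTU_TH (0.11 ± 0.10). Sdha had 281, 364 and 405 CPM in PTU and 308, 391, 394 and 409 CPM in PTU_TH, with 1 library of each group well below the rest. Complex III had 6 positive and 2 negative estimates with a median of 0.06. Uqcr10 stood lowest among them (−0.11 ± 0.17, edgeR adjusted p = 1.00). Cycs, the soluble carrier between complexes III and IV, had 15.9, 17.96 and 19.8 CPM in PTU and 16.0, 19.8, 20.4 and 26.3 CPM in PTU_TH. The groups overlapped, and the change of 0.20 ± 0.18 (95% interval −0.21 to 0.62) had an adjusted p of 0.973 with edgeR.

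Of 13 tested complex IV genes, 9 had a positive estimate, with a median of 0.08. Cox5a, a matrix-facing subunit, had 55.0, 60.1 and 63.8 CPM in PTU and 60.3, 68.8, 76.8 and 78.3 CPM in PTU_TH. Of the 4 hormone-treated libraries, 3 lay above every PTU library, and the change was 0.25 ± 0.12 (edgeR adjusted p = 0.731). Cox7b had 151 to 217 CPM in PTU and 188 to 220 CPM in PTU_TH (0.12 ± 0.15).

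In Mut against Ctrl, too, 0 of 68 members passed, where 0.348% of all genes did. DESeq2 called 0 as well, where it called 403 of 26082 genes. The smallest adjusted p among members was 0.380 with edgeR and 0.0939 with DESeq2. At an unadjusted p under 0.05, edgeR gave 2 members and DESeq2 gave 4, where edgeR gave 8.74% of all genes. The share of all genes that DESeq2 gave at that level is not given here for either comparison. Estimates ran from −0.34 to 0.46 (log2 fold change, Mut over Ctrl) with a median of 0.09, against 0.01 over all genes, and 45 were positive and 23 negative. The 95% interval stayed within 2-fold for 67 members and within 1.5-fold for 38.

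The member furthest above Ctrl was Ndufa3, a small accessory subunit of the membrane arm of complex I. It had 46.5, 55.8, 69.5 and 69.8 CPM in Ctrl and 70.8, 72.2, 93.2 and 96.2 CPM in Mut. Every Mut library lay above every Ctrl library and the change was 0.46 ± 0.16 (edgeR adjusted p = 0.380). In the hormone comparison Ndufa3 had 78.6 to 104 CPM in PTU and 81.2 to 108 CPM in PTU_TH (−0.02 ± 0.14, 95% interval −0.33 to 0.30). Ndufa6, an accessory subunit that binds the acyl carrier protein, had 57.0 to 88.9 CPM in Ctrl and 78.4 to 116 CPM in Mut (0.33 ± 0.17, edgeR adjusted p = 0.627). Ndufs4, an accessory subunit whose loss in mice gives a Leigh-like encephalopathy, had 102 to 139 CPM in Ctrl and 90.5 to 109 CPM in Mut (−0.26 ± 0.12, edgeR adjusted p = 0.594). Over the 35 complex I subunits, 24 estimates were positive and the median was 0.09.

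Cox5a was the member furthest from Ctrl on the lower side by p. It had 72.4, 72.9, 79.7 and 79.9 CPM in Ctrl and 58.1, 59.1, 61.4 and 68.4 CPM in Mut. The groups did not overlap, and the change was −0.30 ± 0.11 (edgeR adjusted p = 0.380). A separation of the groups was found for 1 member upward and 1 downward of 68, where 2.68% of all genes separated upward and 3.43% downward. Complex IV was otherwise mixed, with 7 positive and 6 negative estimates.

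The assembly factors split, with 3 positive and 4 negative estimates and a median of −0.03. Ndufaf5, which modifies the core subunit Ndufs7, had 47.4 to 56.1 CPM in Ctrl and 35.0 to 50.6 CPM in Mut (−0.30 ± 0.14, edgeR adjusted p = 0.572). Ndufaf7, another complex I assembly factor, went the other way, with 89.5 to 109 CPM in Ctrl and 99.6 to 147 CPM in Mut (0.30 ± 0.14, edgeR adjusted p = 0.602). All 4 complex II estimates were positive, from 0.14 to 0.21, and none had an adjusted p under 0.705 with edgeR. Complex III had a median of 0.06. Cycs had 42.6, 44.6, 46.2 and 64.2 CPM in Ctrl and 45.1, 45.5, 47.3 and 80.1 CPM in Mut, with 1 high library in each group (0.14 ± 0.21, 95% interval −0.31 to 0.60, edgeR adjusted p = 0.941).

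The comparisons share no library, so the signs can be set side by side. A positive estimate with hormone and a negative one in Mut, the pairing shown by Hr, was found for 20 of 68 members (29.4%), including Cox5a, Ndufa1 and Ndufs4, against 30.6% of 14048 genes tested in both comparisons. A positive estimate in both was found for 28 members (41.2%, against 19.0% of all genes), the reverse pairing for 17 (25%, against 32.0%) and a negative estimate in both for 3 (4.41%, against 18.4%). Members share their libraries, so these counts are a description.

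The members moved together from library to library. In the Ctrl and Mut set, 51 of 68 members had their highest level in Mut replicate 2, and the member sum was 6255 CPM there, against 4453 to 4830 CPM in the other 3 Mut libraries and 4448 to 5097 CPM in Ctrl. In the PTU and PTU_TH set, 42 of 68 members were highest in PTU_TH replicate 4 (5954 CPM), while 36 were lowest in PTU replicate 5 (4473 CPM) and 21 in PTU_TH replicate 2 (4734 CPM). Group sums overlapped, at 4473 to 5469 CPM in PTU and 4734 to 5954 CPM in PTU_TH. The median ratio of a member's highest to its lowest library was 1.47 in the PTU and PTU_TH set and 1.74 in the Ctrl and Mut set. The median estimates leaned on single libraries: without PTU replicate 5 the median with hormone was −0.03 in place of 0.05, and without Mut replicate 2 the median in Mut was −0.07 in place of 0.09, with 26 of 68 positive in each case. Other libraries left out moved them up. Without PTU replicate 7 the median with hormone was 0.12 (56 of 68 positive), and without PTU_TH replicate 2 it was 0.11 (59). Without Mut replicate 4 the median in Mut was 0.18 (51 of 68). The markers of other interneurons summed to 183 to 290 CPM in Mut, highest in replicate 2, and to 141 to 167 CPM in Ctrl, without overlap. Of these markers 7 of 7 tested had positive estimates in Mut (median 0.46) and 0 were called by edgeR. At an unadjusted p under 0.05 there were 2 of the 7, where 8.74% of all genes passed. The groups separated upward for 1 of the 7, where 2.68% of all genes did. Of 10 parvalbumin neuron markers, 7 had negative estimates in Mut (median −0.26). Of the 10, 1 was called lower and 5 separated downward, where 0.348% and 3.43% of all genes did. With hormone 7 were positive (median 0.12), 1 was called higher and 3 separated upward, where 0.281% of all genes were called and 4.51% separated upward. The part of these cell types in the members' results was not tested.

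**Figure D2:**
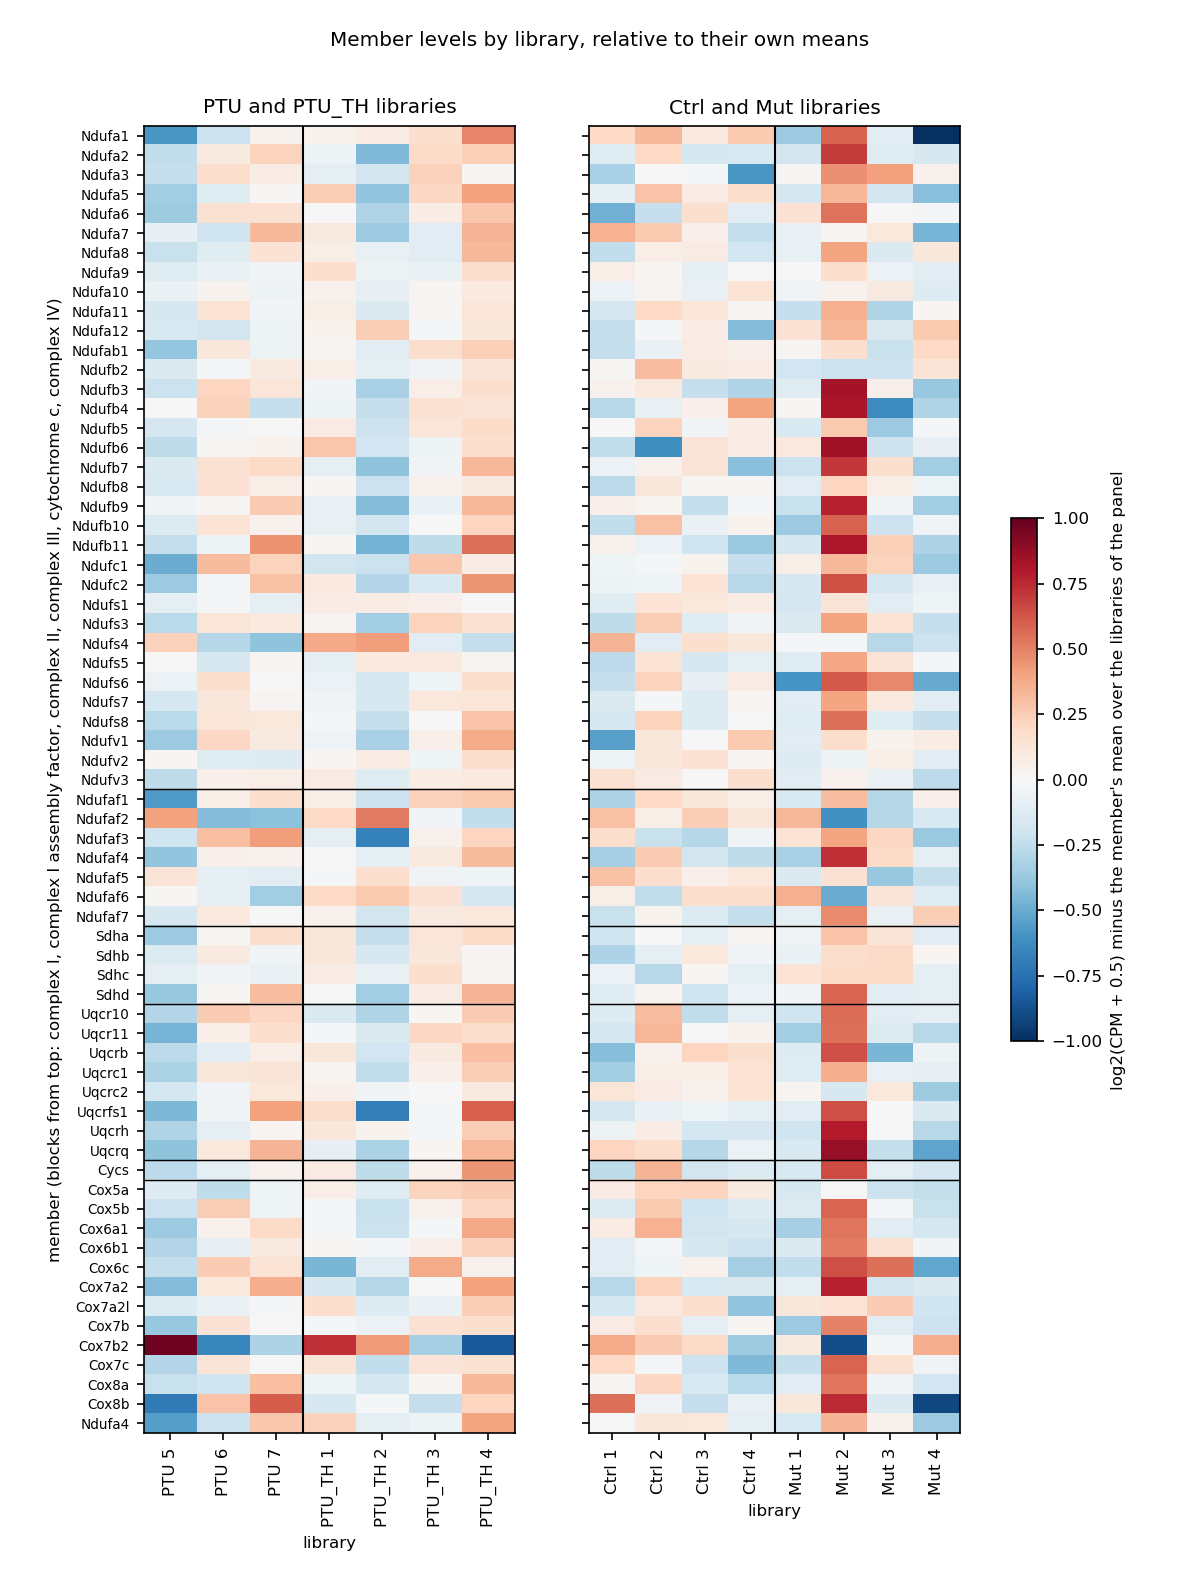
Level of the tested members but 1 in each library as log2(CPM + 0.5) minus the member's mean over the libraries of the panel, with the colour scale ending at −1 and 1. Rows are members in blocks by role, columns are libraries, and vertical lines separate the groups. Most rows are high in Mut replicate 2 and PTU_TH replicate 4 and low in PTU replicate 5, while Ndufs4, Ndufaf2 and Cox7b2 show the opposite order in the left panel.

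In the PTU and PTU_TH set the library pattern went with measures that the design does not set. Counts of Y-linked genes were present in PTU replicates 6 and 7, PTU_TH replicates 3 and 4, Ctrl replicate 2 and Mut replicates 1, 2 and 3. In the PTU and PTU_TH set, members took 0.562% to 0.635% of counts in the 4 libraries with Y-linked counts and 0.417% to 0.514% in the 3 without, and genes spanning over 100 kb took 24.9% to 28.4% and 34.1% to 40.7%. Cell type markers split the same libraries without overlap. Where Y-linked counts were present, the sums were lower for parvalbumin neurons (5868 to 6537 CPM, against 7363 to 8559 CPM where absent) and excitatory neurons (364 to 408, against 418 to 528 CPM). They were higher for oligodendrocytes (141 to 201, against 87.1 to 133 CPM), astrocytes (80.5 to 106, against 61.3 to 73.5 CPM) and microglia (71.2 to 85.3, against 58.7 to 68.0 CPM), and overlapped for other interneurons and endothelial cells. In the Ctrl and Mut set all 7 of these sums overlapped between libraries with and without Y-linked counts. The part of these cells in the members' levels was not tested. Gene span separated the members themselves. The 3 members over 100 kb, Ndufaf2 (156 kb), Cox7b2 (105 kb) and Ndufs4 (100.5 kb), were all higher where Y-linked counts were absent, by 0.60 to 1.24 on the log2 scale, while 59 of the 65 shorter members were lower there, with a median of −0.26. Ndufaf2 was at 43.8 to 58.2 CPM where Y-linked counts were present, and at 68.3 to 85.0 CPM where they were not. In the Ctrl and Mut set the same 3 were higher by 0.20 to 0.28, and 56 of 65 shorter members were lower, with a median of −0.19. Exons of Ndufaf2 overlap B230220B15Rik over 65.7% of their length, so its counts are uncertain. These splits were chosen after the values were seen, and their part in the group comparisons was not tested beyond the following fits. Within libraries with Y-linked counts the member median was 0.06 with hormone (2 PTU_TH and 2 PTU libraries) and 0.01 in Mut (3 Mut and 1 Ctrl). Within those without, it was 0.17 (2 PTU_TH and 1 PTU) and −0.06 (1 Mut and 3 Ctrl). In 3 of these 4 fits an arm is 1 library, assumed to vary like the other group, so the medians are given as values and nothing is read from their calls.

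**Figure D3:**
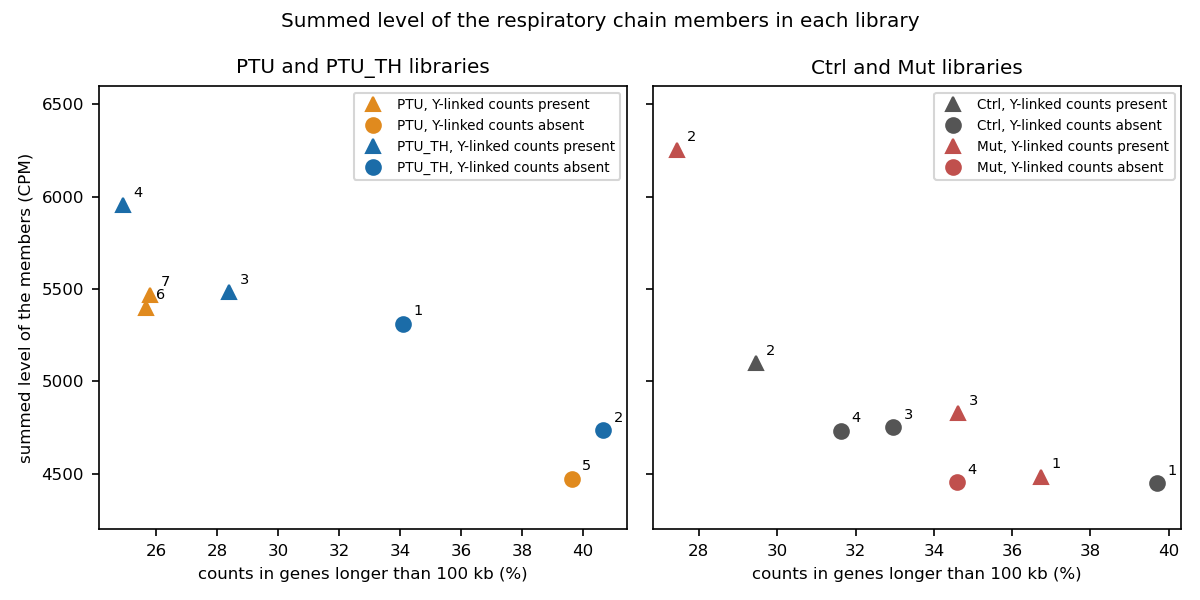
Summed level of the members (CPM) in each library against the share of its counts in genes longer than 100 kb (%), with the replicate number beside each point. Triangles are libraries with Y-linked counts, circles those without, and colours are groups. PTU_TH replicate 4 and Mut replicate 2 have the highest sums of their panels (5954 and 6255 CPM) and the lowest shares (24.9% and 27.4%).

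Adding the share of counts in genes over 100 kb to the fit as a covariate changed the hormone comparison. With it, 2 of 68 members passed, Ndufa1 (0.51 ± 0.14, edgeR adjusted p = 0.0333) and Ndufab1, the mitochondrial acyl carrier protein, where 6.61% of all genes passed (1011, against 43 without it). At that threshold the members' share was thus no higher than that of all genes. At an unadjusted p under 0.05, 17 of 68 members passed, against 1 without the covariate. The member median was 0.10, with 56 of 68 positive, against 0.05 and 48 without it. Ndufab1 had 127, 161 and 180 CPM in PTU and 154, 170, 188 and 196 CPM in PTU_TH (0.18 ± 0.15, edgeR adjusted p = 0.956 without the covariate). With Y-linked counts as the covariate, 0 members passed, where 2.19% of all genes did, and Ndufa1 had an adjusted p of 0.107 with edgeR. At an unadjusted p under 0.05 there were 7 members in that fit, and the member median was 0.10, with 59 of 68 positive. In Mut against Ctrl, 0 members passed with either covariate, where 0.183% of all genes did with Y-linked counts and 1.24% with the long-gene share. At an unadjusted p under 0.05 there were 2 and 7 members in these fits, with medians of −0.03 and 0.08. The share of all genes at that unadjusted level is not given here for the covariate fits, so nothing is read from these counts.

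Related oxidative genes gave no call with edgeR either. At an unadjusted p under 0.05, where all genes gave 7.37% with hormone and 8.74% in Mut, complex V had 0 genes in either comparison and the tricarboxylic acid cycle list 2 of 16 with hormone, Suclg1 and Pdhb, and 0 in Mut. The further assembly factors had 5 of 26 with hormone, 3 of them positive and 2 negative, and 0 in Mut. With hormone, 4 of 16 cycle genes and 3 of 26 further assembly factors separated upward, where 4.51% of all genes did. Downward there were 0 and 1, where 4.09% did. Complex V had 0 either way. In Mut these lists had 0 upward and 0 downward, where 2.68% and 3.43% of all genes separated. Genes of a list share their libraries, so these counts are a description. Among 17 genes of complex V, the ATP synthase, 14 estimates were positive with hormone (median 0.04) and 9 in Mut (median 0.01). Of 16 genes of the tricarboxylic acid cycle and pyruvate dehydrogenase, 15 were positive with hormone, with a median of 0.16, and 7 in Mut, with a median of −0.01. Pdhb, a subunit of pyruvate dehydrogenase, had 248 ± 37.0 CPM in PTU (SD, n = 3) and 318 ± 19.8 in PTU_TH (n = 4), a change of 0.36 ± 0.14 with an edgeR adjusted p of 0.589. Of 26 further assembly factors together with cytochrome c1, 17 were positive with hormone and 18 in Mut. Lyrm7, an assembly factor of complex III, had the largest difference named from this list, at 32.5 ± 2.49 CPM in PTU and 23.2 ± 4.49 in PTU_TH (−0.49 ± 0.17, edgeR adjusted p = 0.458). Of 71 mitochondrial ribosomal protein genes, 36 were positive with hormone (median 0.004) and 54 in Mut (median 0.10). Of the cytosolic ribosomal protein genes, 27 of 74 were positive with hormone (median −0.06) and 56 of 78 in Mut (median 0.16).

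Among 15 regulators of mitochondrial genes, 0 were called, with 10 positive with hormone and 9 in Mut, and at an unadjusted p under 0.05 there were 0 with hormone and 3 in Mut, 1 positive and 2 negative. Ppargc1a, the coactivator PGC-1alpha, had 253 ± 57.3 CPM in PTU and 283 ± 55.9 in PTU_TH (0.16 ± 0.20), and 292 ± 45.8 in Ctrl and 296 ± 43.1 in Mut (0.02 ± 0.15). Esrra, an orphan nuclear receptor that acts with it, had 83.0 ± 8.38 CPM in Ctrl and 66.6 ± 4.08 in Mut, groups that did not overlap (−0.32 ± 0.11, edgeR adjusted p = 0.383). Of the 15 regulators, 1 separated downward in Mut, Esrra, and 1 upward, where 3.43% and 2.68% of all genes did. Classical metabolic targets of the hormone in other organs also missed the threshold. Of 7 tested, 6 estimates were positive with hormone (median 0.13) and 6 were negative in Mut (median −0.07). With hormone 1 of 7 separated upward, where 4.51% of all genes did, and in Mut 1 of 7 downward, where 3.43% did. The 2 genes that separated are given next. Gpd2, the mitochondrial glycerol phosphate dehydrogenase, had 11.6 ± 1.24 CPM in PTU and 15.3 ± 0.637 in PTU_TH, without overlap (0.40 ± 0.14, edgeR adjusted p = 0.5004). Me1, the cytosolic malic enzyme, had 5.27 ± 0.613 CPM in Ctrl and 2.78 ± 0.945 in Mut, without overlap (−0.92 ± 0.29, edgeR adjusted p = 0.308). The subunits encoded by mitochondrial DNA took only 0.00053% to 0.00235% of counts in these nuclear libraries, and 0 were called.

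Complex IV has tissue-specific isoforms, and in the 4 pairs with counts for both forms, those known from heart and skeletal muscle or testis lay below the widely expressed form in every library. Cox6b1 had 84.2 to 147 CPM per kb and its testis isoform Cox6b2 at most 0.342, with a count of 0 in 4 libraries. Cox7a2 had 34.7 to 92.8 CPM per kb and the muscle isoform Cox7a1 0.231 to 1.17, or 0.380% to 3.26% of the pair. Cox8a had 88.3 to 181 CPM per kb and the muscle isoform Cox8b 0.238 to 4.46. Cox7b2, the testis form of Cox7b, had 2.55 to 11.3 CPM per kb, against 116 to 210 for Cox7b. It was counted in every library, with 20 to 142 counts, and made up 1.39% to 8.32% of its pair. Ndufa4 had 27.1 to 52.6 CPM per kb and the hypoxia-induced Ndufa4l2 at most 0.339. Cox7a2l, which joins complexes III and IV, had an estimate of 0.14 ± 0.14 with hormone and 0.15 ± 0.17 in Mut.

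**Figure D4:**
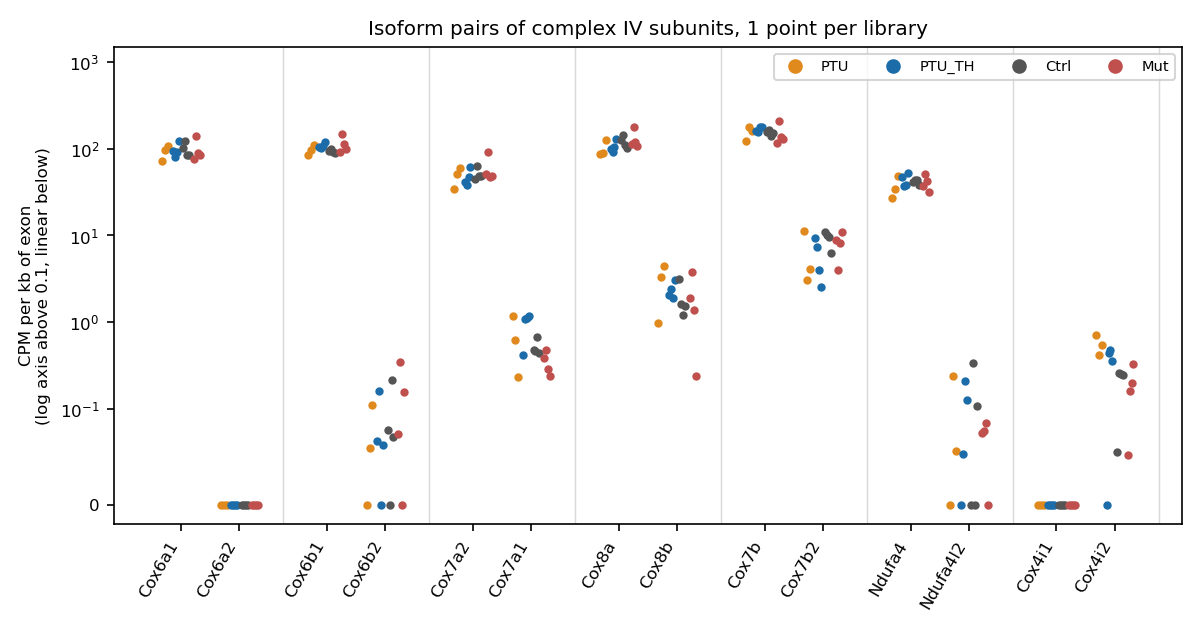
Level of each isoform of a complex IV subunit in each library (CPM per kb of exon, log axis above 0.1 and linear below), coloured by group. The first of each pair is the widely expressed form. Cox6a2 and Cox4i1 lie at 0 in all 15 libraries, and Cox7b2 lies between 2.55 and 11.3. Whether the zeros come from counting or from absent RNA was not tested.

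Counting left gaps. Cox4i1 and Ndufa13, subunits found in nearly all tissues, are listed at 0 in all 15 libraries, as are Cox6a2 and Cox8c. In the GENCODE M21 annotation (GRCm38), exons of Cox4i1 share 9.94% of their bases with Emc8 and those of Ndufa13 share 30.0% with Tssk6. Those of Cox6a2 share 10.29% with Itgad, and Cox8c shares none of its exon bases. How shared reads were counted is not given in the sources used here. Among members with counts, Ndufb6, with 39% shared, had 8408 counts in all, and Uqcrc2, with 19.8% shared, had 27879. The part of overlap in the zeros was not tested, and a 0 does not tell absent RNA from uncounted reads. The assembly genes Sco2, Cox16, Cox17, Foxred1 and Ecsit are likewise listed at 0 throughout. The other untested members, Cox4i2, Cox6b2, Cox7a1 and Ndufa4l2, did not pass the filter in either comparison. The 2 sets of tables also differed for Cycs, with 15.9 to 26.3 CPM in the PTU and PTU_TH libraries and 42.6 to 80.1 CPM in the Ctrl and Mut libraries, and for Ndufb9, with 19.0 to 32.7 and 51.4 to 111 CPM. For the other 66 tested members the mean levels of the sets were within 1.5-fold. The sets used different gene lists and were scaled separately, so table set and treatment cannot be told apart.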

How the data were processed

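Nuclear RNA of 15 libraries was amplified with SMART-Seq v4, turned into Nextera XT libraries and read from 1 end (75 bases, NextSeq500), per the labels' protocols. For each library the authors deposited a table of raw counts per gene. Per the submitters' processing notes these were made with Bowtie2 2.5.3 and HTSeq on mm10 (GRCm38). Not given in the sources used here are the strand setting, the annotation release and how reads shared by genes were treated. The tables follow 2 gene lists, 55341 rows for PTU and PTU_TH and 48321 for Ctrl and Mut, so each comparison stayed within 1 set.

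Counts were fitted with edgeR 4.0.16 (R 4.3.3), using only the libraries of the comparison, TMM scaling, filterByExpr with a minimum count of 10 and robust quasi-likelihood tests, with Benjamini-Hochberg adjustment over all genes tested and a threshold of 0.05. SE and 95% intervals were derived from the test statistic and its degrees of freedom. Depth ranged from 12957838 to 32571175 counts per library, and the biological coefficient of variation (common to all genes) was 23.0% in the hormone comparison and 27.8% in the mutant comparison. No pair of replicates agreed within counting noise, since chi-square divided by its degrees of freedom was 7.20 to 105. Titles number mice, so replicates were read as animals. Gene spans, exon lengths and exon overlaps came from GENCODE M21. Y-linked counts were called present above 50 CPM summed over Ddx3y, Uty, Kdm5d and Eif2s3y.

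The members and the other gene lists were chosen with earlier results of these data known. Named are, per comparison, the 3 members of smallest p in each direction, the 5 highest per kilobase, Cycs, complex II, isoform families, and the 2 genes of smallest p of each other list. From the latter only those that carry a result are described, and other members are named where a count or a library pattern turns on them, after their values were seen. Other fits used DESeq2 1.42.0, upper quartile or RLE scaling, different filters, all groups at once, a covariate, the replicate number as a block, or 1 library fewer, with fits within libraries by Y-linked counts added after seeing the data. Ndufb1-ps, and Cox6c2, Ndufa11b, Ndufaf8, Ndufb4c and Ndufs6b, which only the PTU and PTU_TH tables list, were left out by the rule. Of the tested members, 1 enters the counts and medians but is not reported by name here.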

Additional observations from a re-analysis of the deposited data

Results flagged for a closer look

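Each result here is a library that lay apart from the other 3 of its group by Dixon's test at the 95% level. The test was past that value in 12 of 99 groups tested, where chance flags about 1 in 20. The groups share libraries, so the 12 are not independent.

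Mut replicate 2 accounts for 9 of them. It had 112 CPM for Uqcr10 (65.6 to 70.5 in the other Mut libraries), 112 CPM for Cox8a (67.4 to 74.9), 80.1 CPM for Cycs (45.1 to 47.3), 120.4 CPM for Sdhd (74.1 to 79.0) and 87.6 CPM for Cox7a2 (45.1 to 47.8). Its sums were 2791 CPM for complex I, 927 CPM for complex III and 476 CPM for the complex I assembly factors, and its median over all members was 78.0 CPM. Cycs was also high in Ctrl replicate 2, at 64.2 CPM against 42.6 to 46.2 in the other Ctrl libraries. The remaining flags fell on PTU_TH replicate 2, with a high level of Ndufaf5 (51.7 CPM, against 44.8 to 45.7) and a low sum of complex II (587 CPM).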

How the results depend on the processing

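Across 799 values of the 25 named members under the alternatives, 747 kept their direction and their side of the threshold, 51 changed sign and 1, Ndufa1 with the long-gene covariate, came to pass it. Members called remained 0 in every planned setting run except that covariate in PTU_TH against PTU, where 2 passed. The median of the members ranged from −0.03 to 0.17 with hormone and from −0.07 to 0.18 in Mut. With Y-linked counts as the covariate it was 0.10 with hormone and −0.03 in Mut. Genes called in all depended more on the setting. With hormone, 43 became 203 with DESeq2, 335 with Y-linked counts and 1011 with the long-gene share as covariate, 105 within libraries with Y-linked counts, 87 within those without, and 5 to 29 with 1 library left out. In Mut, 59 became 403 with DESeq2, 90 with a filter of 1 CPM, 196 with 1 fit of all groups, 31 with Y-linked counts and 210 with the long-gene share as covariate, 0 and 1 within libraries with and without Y-linked counts, and 11 to 103 with 1 library left out. The cause was not tested. Of the 4 fits within libraries by Y-linked counts, 3 have an arm of 1 library (1 PTU, 1 Ctrl or 1 Mut), assumed to vary like the other group, so their counts of calls say nothing of stability.

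Whether replicate numbers of Ctrl and Mut pair the libraries is not given by the labels and was not settled by the values. Same-numbered deviations had correlations of 0.12, 0.20, −0.02 and 0.08, and the others ran from −0.15 to 0.13. Of the 4 Mut libraries, 2 deviated most like the Ctrl library of their own number. With the replicate number as a block, 82 genes and 0 members passed, against 59 and 0 without it, and the member median was 0.08. PTU and PTU_TH share no replicate number.

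Some estimates changed sign, most of them near 0. With hormone, Ndufa6 was −0.0033 with upper quartile scaling, and with Y-linked counts or the long-gene share as covariate Cox7a2 was 0.0693 or 0.0516 and Ndufa3 0.0368 or 0.0251. In Mut, Y-linked counts as covariate gave −0.0061 for Cox7a2l, −0.0521 for Cox8a, −0.0694 for Cycs, −0.0337 for Ndufb9 and −0.0679 for Uqcr10. With 1 library left out, the range with hormone spanned 0 for Cox6a1 (−0.0676 to 0.20), Cox7a2 (−0.23 to 0.16), Cox7b (−0.0129 to 0.24), Cox8a (−0.0476 to 0.26), Cox8b (−0.71 to 0.15), Ndufa3 (−0.13 to 0.0706), Ndufa6 (−0.13 to 0.11), Ndufaf5 (−0.0156 to 0.12), Ndufaf7 (−0.0340 to 0.0944), Sdha (−0.0339 to 0.22), Sdhb (−0.0048 to 0.11), Sdhd (−0.13 to 0.21), Uqcr11 (−0.0573 to 0.24). In Mut it did so for Cox6a1 (−0.25 to 0.0991), Cox7a2 (−0.0644 to 0.34), Cox7b (−0.27 to 0.0472), Cox8a (−0.0715 to 0.21), Cox8b (−0.64 to 0.33), Cycs (−0.10 to 0.29), Ndufa4 (−0.18 to 0.0529), Ndufb9 (−0.16 to 0.27), Uqcr10 (−0.12 to 0.22), Uqcr11 (−0.30 to 0.0422).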
